A study of Mus musculus with 4 samples.

Results

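The genes described here are the 42 members of the core macroautophagy machinery, out of 16218 genes listed for mouse thyroid. They were chosen by name from textbook knowledge of the pathway. The rule held no measured value, but the choice was made with earlier results of these data known. All 42 were listed and all passed the filter on low counts. They were followed in NOD.H-2h4 mice, which are predisposed to autoimmune thyroiditis and had received injections 3 times per week for 2 weeks. The control group (n = 2) was given an isotype control IgG and the treated group (n = 2) an antibody against PD-L1, the ligand that restrains T cells through the receptor PD-1. Whole thyroids were then sequenced after poly(A) selection. The labels give no age or sex, call the groups CTR and anti-PD-L1 Ab treated under genotype, and carry a batch field with a different clone string in every library (LTF2 and LTF3 for IgG, 10F.9G2 and 10F.9G3 for anti-PD-L1). The title of the series names autophagy as a process activated by PD-L1, so the question asked of these genes is whether their RNA differed when PD-L1 was blocked.

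Macroautophagy encloses cytoplasm in a double membrane, the autophagosome, and delivers it to the lysosome. A kinase complex around ULK1 starts the process, a lipid kinase complex around Beclin 1 and VPS34 marks the membrane with phosphatidylinositol 3-phosphate, ATG9 vesicles and the ATG2 lipid transfer proteins feed membrane growth, and 2 ubiquitin-like conjugation systems attach LC3 and GABARAP proteins to the membrane. Cargo receptors bind LC3 and ubiquitinated material, and tethers and SNARE proteins then fuse the vesicle with the lysosome. Much of the control of the pathway acts on proteins, by phosphorylation and lipidation, so RNA levels describe the supply of the machinery and not its activity. Here the members were ordered by step as 5 initiation, 6 nucleation, 8 membrane supply, 15 conjugation, 5 cargo receptor and 3 fusion genes.

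Total counts ranged from 75591923 to 79663374.5 per library. At that depth 3 counts correspond to at most 0.0408 CPM (counts scaled to a common library total), far under any member. Tg, the thyroglobulin gene that defines the thyroid, had more counts than any other gene in all 4 libraries and took 15.3% and 14.6% of counts under IgG, but 4.34% in anti-PD-L1 replicate 1 and 16.9% in replicate 2. Anti-PD-L1 replicate 1 also differed from the other libraries in the female-specific RNA Xist (1.40 CPM against 67.7 to 72.7 CPM) and the Y-linked gene Ddx3y (62.6 CPM against 0.350 to 0.790 CPM). That is the pattern of a male thyroid, while the other libraries have that of female thyroids. The treated pair thus differed in sex by these genes, and sex was not balanced between the groups. Skeletal muscle RNA was present throughout, with 16 sarcomere, calcium-handling and other muscle genes summing to 51080 and 68450 CPM under IgG and to 80460 and 31140 CPM under anti-PD-L1. Nothing in the labels says that the thyroids came from separate cages or days, and with 2 samples per group p-values measure the spread between these samples.

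None of the 42 genes passed the test of anti-PD-L1 against IgG thyroids. The difference between group means exceeded the wider of the 2 gaps within a group in 3 of them (7.14%, against 19.7% of all genes), namely Uvrag, Wdr45b and Calcoco1. Fitted log2 fold changes, anti-PD-L1 minus IgG, lay between −0.18 (Atg9a) and 0.22 (Atg4a), with 20 above 0 and 22 below. The quasi-likelihood test of edgeR, adjusted by Benjamini-Hochberg over 16217 genes, called 0 members, the smallest adjusted p being 0.9997, and called 0% of all genes. DESeq2 called 0 members against 3.26% of all genes. Before adjustment, 0 of the 42 had an edgeR p under 0.05, against 6.06% of all genes. At that level limma voom also gave 0 members, against 6.46% of all genes. The median over the members was −0.00095, against 0.00021 over all genes. A p that misses the threshold does not show equality, so the intervals are the more direct measure. The 95% interval of the log2 fold change lay inside −1 to 1 for 41 of the 42 genes, against 64.6% of all genes. For those 41 a doubling or halving of the group level was outside the interval. All genes include some at lower levels than any member, and no comparison with genes of like level was made.

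**Figure D1:**
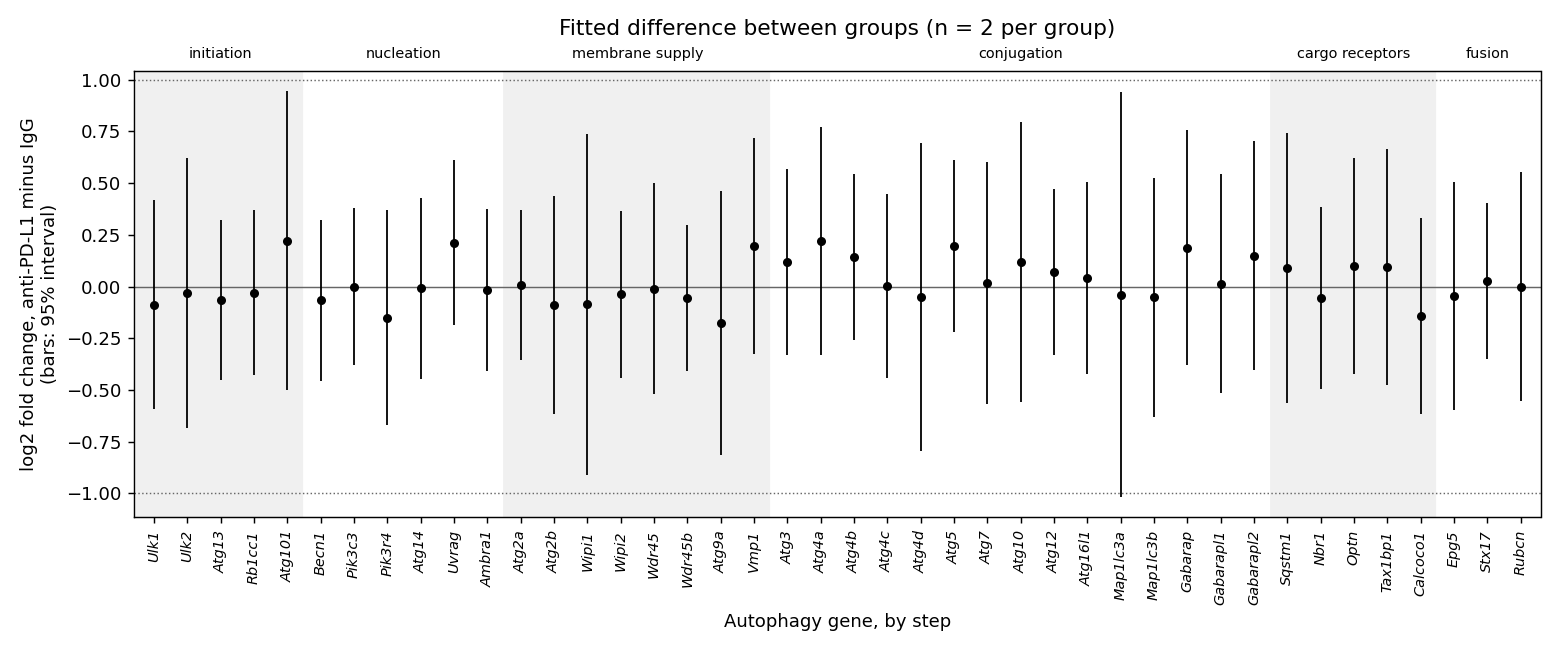
Fitted log2 fold change of each of the 42 autophagy genes (anti-PD-L1 minus IgG, n = 2 libraries per group), with bars for the 95% interval and dotted lines at 1 and −1, by step. All intervals include 0, and Map1lc3a has the only interval that passes a dotted line, reaching from −1.02 to 0.94.

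In 7 members the 2 groups did not overlap. Uvrag, Atg4b, Atg5 and Gabarap had both treated libraries above both controls, which is 9.52% of the members where 16.5% of all genes had that order. Wdr45b, Nbr1 and Calcoco1 had both below, 7.14% of the members against 13.1% of all genes. Both shares are under the background, and the order of libraries in these 7 genes is given with their steps below. The smallest two-sided p of an exact permutation test on such values is 0.333 with 2 libraries per group.

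Genes of initiation had their largest differences within the treated group. Ulk1, the kinase that receives signals from mTORC1 and AMPK, had 81.0 and 86.0 CPM under IgG and 88.0 and 69.2 CPM under anti-PD-L1. Its paralog Ulk2 had 70.7 and 84.6 CPM against 89.8 and 62.2 CPM. In both kinases anti-PD-L1 replicate 1 was the highest of the 4 libraries and replicate 2 the lowest. Atg101, which with Atg13 stabilises the complex, had 29.5 and 27.8 CPM against 41.2 and 25.6 CPM. Its fitted log2 difference, 0.22 ± 0.27 (SE, n = 2 per group; edgeR adjusted p = 0.9997), rested on replicate 1, and was −0.16 without that library and 0.51 without anti-PD-L1 replicate 2. Atg13, the adaptor of the complex, and Rb1cc1, the scaffold also called FIP200, were steadier. Atg13 had 53.0 and 56.9 CPM against 54.8 and 50.2 CPM, and Rb1cc1 had 50.9 and 52.6 CPM against 54.0 and 47.2 CPM. The step had a median log2 fold change of −0.031, with Ulk1 at −0.09 ± 0.19 as the member of smallest p on the lower side.

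The nucleation genes had the lowest median standard error of the 6 steps, 0.15 on the log2 scale. Becn1, which encodes Beclin 1, had 75.2 and 70.9 CPM under IgG and 71.2 and 68.3 CPM under anti-PD-L1. Pik3c3, the gene of the lipid kinase VPS34, had 32.5 and 30.5 CPM against 30.5 and 32.4 CPM, and its log2 fold change was −0.0013 with a 95% interval from −0.38 to 0.38. These 2 core subunits therefore had nearly the same values in every library. Atg14, which directs the complex to autophagosome formation, had 14.8 and 14.9 CPM against 13.8 and 15.6 CPM, and Ambra1, a Beclin 1 partner, had 41.2 CPM in both IgG libraries against 38.0 and 43.3 CPM. Pik3r4, the regulatory subunit VPS15, had 34.0 and 33.6 CPM against 26.1 and 34.9 CPM. Its low value came from anti-PD-L1 replicate 1 alone, and its log2 fold change of −0.15 ± 0.19 was 0.043 without that library.

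Uvrag, the Beclin 1 partner that takes the place of Atg14 in the complex acting on endosomes and late autophagosomes, had the smallest p of all 42 genes. It lies on chromosome 7 (98885021 to 99141141 of GRCm38) and had 37.1 and 41.6 CPM under IgG against 43.7 and 47.5 CPM under anti-PD-L1. Both treated libraries were above both controls. The log2 fold change was 0.21 ± 0.15 (SE, n = 2 per group; 95% interval −0.19 to 0.61, edgeR adjusted p = 0.9997), and between 0.11 and 0.30 with each library left out in turn. Of the 150-base stretches of the Uvrag transcripts, 12.3% also occur in transcripts of Gm45187, so some of its reads may not be its own.

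Among the membrane supply genes, Vmp1, an endoplasmic reticulum scramblase needed for autophagosome growth, had the highest level per kilobase of exon. It had 121 and 107 CPM under IgG and 119 and 142 CPM under anti-PD-L1, a log2 fold change of 0.20 ± 0.20 that was 0.049 without anti-PD-L1 replicate 2. Atg9a, the scramblase carried by the seed vesicles, had 63.9 and 70.1 CPM against 70.7 and 47.9 CPM. Anti-PD-L1 replicate 2 was the low library, and the log2 fold change of −0.18 ± 0.24 was 0.065 without it. Wipi1, a reader of phosphatidylinositol 3-phosphate, had 27.6 and 27.2 CPM against 32.9 and 18.7 CPM, so its controls agreed closely while its treated libraries differed 1.76-fold. Its paralogs were steadier. Wipi2 had 56.7 and 53.1 CPM against 50.0 and 56.9 CPM, and Wdr45b had 37.4 CPM in both IgG libraries against 36.5 and 35.5 CPM. Although the groups did not overlap in Wdr45b, its log2 fold change was −0.054 ± 0.13. Wdr45 had 28.7 and 27.7 CPM against 31.7 and 24.2 CPM. The lipid transfer genes Atg2a (39.7 and 37.2 CPM against 38.6 and 38.6 CPM) and Atg2b (40.0 and 41.0 CPM against 32.4 and 43.8 CPM) had log2 fold changes of 0.0063 and −0.089.

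**Figure D2:**
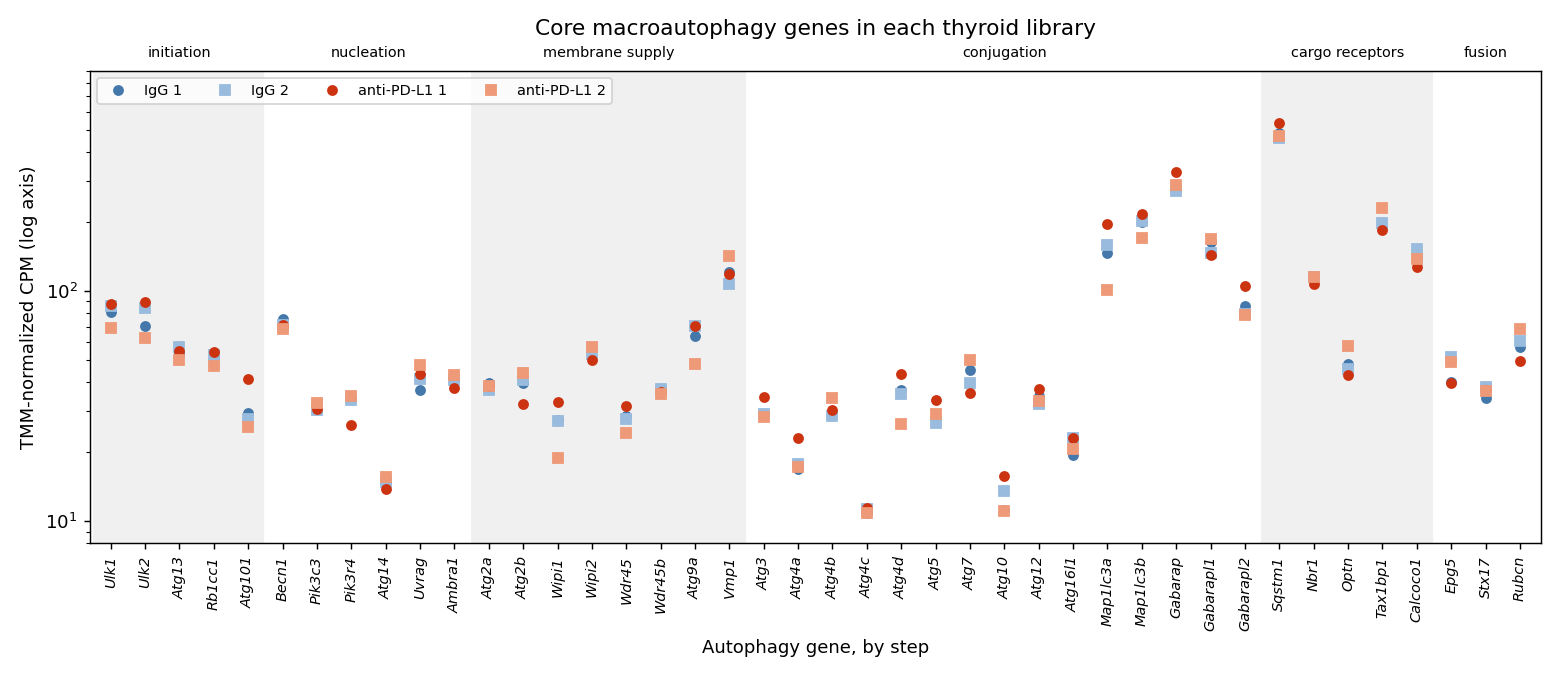
TMM-normalized CPM of the 42 autophagy genes in each of the 4 thyroid libraries (log axis), by step, with blue for IgG and red for anti-PD-L1 and a circle or square for replicate 1 or 2. The points of most genes sit close together, and the widest gaps, in Map1lc3a, Wipi1, Atg4d and Atg101, are between the 2 anti-PD-L1 libraries.

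The conjugation step ends on 5 genes of the LC3 and GABARAP families. ATG4 proteases cut each precursor just behind a glycine, which is then joined to phosphatidylethanolamine in the membrane. The last 30 bases of each coding sequence, stop codon included, show how the members differ at this site. They are taken from the GENCODE M21 transcript numbered 201 of each gene, with the last glycine codon in capitals.
Map1lc3a: tacgcctcccaagaaaccttcGGCttctga
Map1lc3b: gagacattcGGGacagcaatggctgtgtaa
Gabarap: tacagtgatgaaagcgtctatGGTctgtga
Gabarapl1: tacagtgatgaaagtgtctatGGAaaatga
Gabarapl2: tacagcggagagaacacttttGGCttctga
Of these, 4 have 1 codon between the glycine and the stop, while Map1lc3b has 5. The glycine is codon 120 in both LC3 genes and codon 116 in the 3 GABARAP genes. No 150-base stretch of Map1lc3a or Gabarap transcripts occurs in another gene, and the shares were 1.02% for Map1lc3b (with Gm6055) and 0.507% for Gabarapl2, so these paralogs were well separated at the read length. Gabarapl1 shared 13.2% of its stretches with 1700101I11Rik.

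These 5 genes were among the 7 of highest level per kilobase of exon in the pathway, and did not move together between the groups. Gabarap (chromosome 11, 69991143 to 69994951) stood first at 158 CPM per kb and had 273 and 270 CPM under IgG against 330 and 289 CPM under anti-PD-L1. Both treated libraries were above both controls, and the fitted log2 difference was 0.19 ± 0.21 (SE, n = 2 per group; 95% interval −0.38 to 0.76, edgeR adjusted p = 0.9997), or 0.091 without anti-PD-L1 replicate 1. Map1lc3b, the gene of the LC3 form most used as an autophagosome marker, had 199 and 201 CPM against 215 and 170 CPM, and its log2 fold change was −0.053 ± 0.22. Gabarapl1 had 163 and 146 CPM against 144 and 169 CPM, and Gabarapl2, also called GATE-16, had 86.3 and 79.4 CPM against 105 and 78.8 CPM.

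Map1lc3a had the widest spread of all 42 genes. This LC3 form lies on chromosome 2 from 155276297 to 155278073 and had 147 and 158 CPM under IgG, against 196 CPM (replicate 1) and 101 CPM (replicate 2) under anti-PD-L1. The controls lie between the treated libraries, which differed 1.94-fold. Its log2 fold change of −0.039 ± 0.36 was −0.59 without anti-PD-L1 replicate 1 and 0.35 without replicate 2, so its direction depends on 1 library. Neither value passed over all genes (edgeR adjusted p = 0.327 and 0.408, on 1 residual degree of freedom with the lone treated library assumed to vary like the controls).

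The enzymes that process and attach these proteins were closer to their controls. Atg7, the activating enzyme of both conjugation systems, had 45.2 and 39.9 CPM under IgG and 35.8 and 50.1 CPM under anti-PD-L1. Atg3, which transfers LC3 to the lipid, had 29.0 and 29.3 CPM against 34.8 and 28.4 CPM, and Atg10, which transfers ATG12 to ATG5, had 11.2 and 13.5 CPM against 15.8 and 11.0 CPM. In each of these 3 the controls fell within the range of the treated pair. Atg5 (chromosome 10, 44268358 to 44364291) had 28.0 and 26.7 CPM against 33.6 and 29.1 CPM. Its treated libraries were both above its controls, and its log2 fold change was 0.20 ± 0.16 (edgeR adjusted p = 0.9997), or 0.091 without anti-PD-L1 replicate 1. The partners of ATG5 in the complex that directs lipidation had smaller differences. Atg12 had 34.9 and 32.4 CPM against 37.5 and 33.2 CPM, and Atg16l1 had 19.4 and 23.0 CPM against 22.9 and 20.6 CPM.

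The 4 Atg4 protease genes differed among themselves. Atg4a had 16.8 and 17.7 CPM under IgG against 23.1 and 17.2 CPM, and Atg4b, known as the most active of the family, had 29.9 and 28.5 CPM against 30.3 and 34.2 CPM. Atg4c stayed near one value, with 10.8 and 11.3 CPM against 11.4 and 10.8 CPM. Atg4d had 37.0 and 35.5 CPM against 43.6 and 26.4 CPM, a 1.65-fold gap between its treated libraries. Atg4a had the highest fitted log2 fold change of the 42 genes (0.22 ± 0.21), which was −0.0068 without anti-PD-L1 replicate 1. The pseudogene Atg4a-ps holds 24.2% of its 150-base stretches, so its level is less certain than that of the others. Over the whole step 12 of 15 genes had log2 fold changes above 0, with a median of 0.070, while 50.0% of all genes were above 0. Without anti-PD-L1 replicate 1 only 5 of the 15 were above 0, with a median of −0.036, so this count rests on that library. No member of the step passed, and both treated libraries were above both controls in 3 of the 15 (20%), near the 16.5% of all genes.

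The cargo receptors hold the gene of highest mean CPM in the pathway. Sqstm1, the gene of p62, which gathers ubiquitinated proteins and is itself degraded by autophagy, lies on chromosome 11 from 50199366 to 50210827. It had 485 and 461 CPM under IgG and 534 and 473 CPM under anti-PD-L1, a log2 fold change of 0.089 ± 0.24 (95% interval −0.56 to 0.74) that was −0.0021 without anti-PD-L1 replicate 1. Per kilobase of exon its mean level of 146 CPM came just under that of Gabarap. Nbr1, a receptor that works beside p62, had 115.4 and 115.1 CPM against 107.0 and 114.9 CPM, and Calcoco1, a receptor for the endoplasmic reticulum and Golgi, had 141 and 151 CPM against 127 and 137 CPM. The groups did not overlap in either gene, with log2 fold changes of −0.055 ± 0.16 and −0.14 ± 0.18, each smaller than its standard error. Tax1bp1 had 189 and 197 CPM against 184 and 228 CPM, and Optn, the gene of optineurin, had 48.0 and 45.8 CPM against 42.9 and 57.5 CPM. In these 2 ubiquitin-binding receptors anti-PD-L1 replicate 2 was the highest library and replicate 1 the lowest.

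Genes of fusion and maturation had log2 fold changes between −0.046 and 0.028. Stx17, the SNARE of the finished autophagosome, had 34.3 and 38.1 CPM under IgG and 37.3 and 36.6 CPM under anti-PD-L1, with a 95% interval of its log2 fold change from −0.35 to 0.41. Epg5, the tether that selects lysosomes for fusion, had 40.1 and 51.6 CPM against 39.9 and 48.8 CPM. Rubcn, the gene of Rubicon, which inhibits the Beclin 1 complex holding UVRAG, had 57.0 and 60.7 CPM against 49.7 and 68.0 CPM. The 3 genes thus had overlapping groups, with the widest spread in Rubcn.

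The treated libraries lay further apart than the controls in most members. The gap between the 2 anti-PD-L1 libraries exceeded that between the 2 IgG libraries in 35 of the 42 genes (83.3%), against 67.4% of all genes. The median gap was 0.25 on the log2 scale in the anti-PD-L1 pair and 0.085 in the IgG pair, while the median difference between group means was 0.076. Over all genes the same medians were 0.33, 0.16 and 0.15. In 36 members (85.7%, against 70.5% of all genes) the difference between groups was smaller than the gap within the treated pair. All 3 medians were lower in the autophagy genes, and so was their median biological coefficient of variation (21.3% against 24.4% for all genes). Mean levels of the members ran from 11.1 CPM (Atg4c) to 488.5 CPM (Sqstm1), while all genes include some of lower level. No comparison with genes of like level was made, so these differences are not shown to belong to the pathway.

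**Figure D3:**
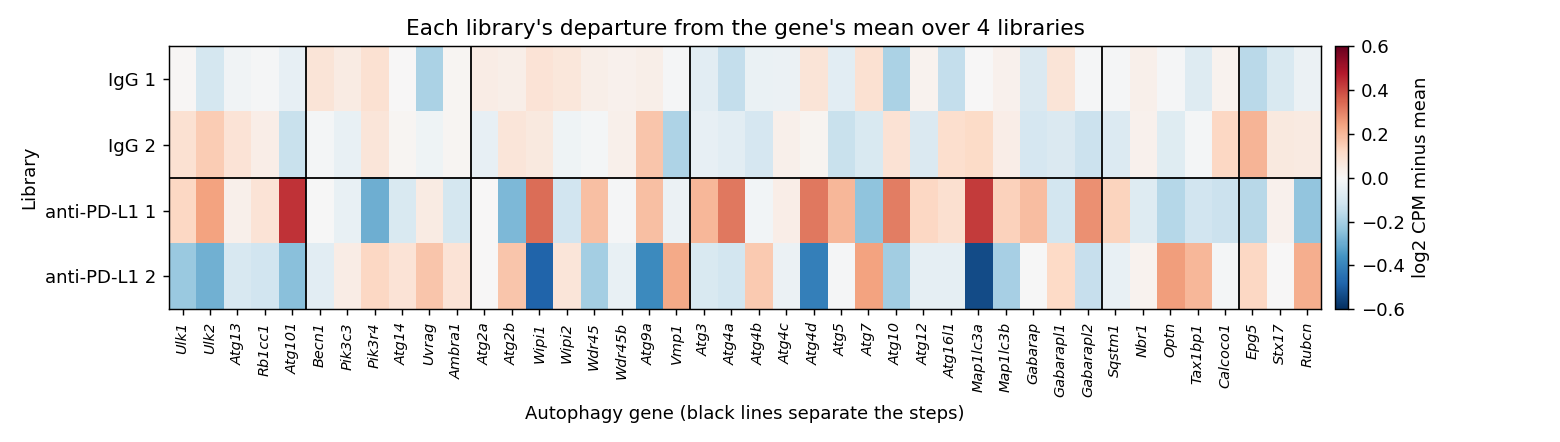
Departure of each of the 42 autophagy genes in each library from the gene's mean over the 4 libraries (log2 CPM with a prior count of 2, colour from −0.6 to 0.6), by step. The IgG rows are pale, while the anti-PD-L1 rows carry stronger colours of opposite sign in many genes, such as Map1lc3a, Wipi1, Atg4d and Atg101.

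In part of the members the 2 treated libraries lay on opposite sides of both controls, and the direction differed by gene. In 14 of the 42 genes (33.3%) anti-PD-L1 replicate 1 was the highest library and replicate 2 the lowest, an order found in 16.8% of all genes. They were Ulk1, Ulk2, Rb1cc1, Atg101, Wipi1, Wdr45, Atg9a, Atg3, Atg4c, Atg4d, Atg10, Map1lc3a, Map1lc3b and Gabarapl2. In 10 genes (23.8%, against 16.9% of all genes) the order was the opposite, and these were Pik3r4, Atg14, Ambra1, Atg2b, Wipi2, Atg7, Gabarapl1, Optn, Tax1bp1 and Rubcn. The initiation step had 4 of its 5 genes in the former group, and the nucleation step had 3 of its 6 in the latter and none in the former. This grouping was made after the values were seen, so it is a description with no test.

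Tissue markers differed between the same 2 libraries. Of the 16 skeletal muscle genes, none at 0 in any library, 9 had anti-PD-L1 replicate 1 highest and replicate 2 lowest, and none the opposite. Their summed levels ranged from 51080 to 68450 CPM in IgG and from 31140 to 80460 CPM in anti-PD-L1. Of the 13 thyroid follicular genes, 8 had replicate 2 highest and replicate 1 lowest, and none the opposite. Their sums ran from 150400 to 155900 CPM in IgG and from 46190 to 167300 CPM in anti-PD-L1. Most of each sum was Tg, with 152800 and 148500 CPM under IgG and 44670 and 162500 CPM under anti-PD-L1. Among 10 adipocyte genes 6 had the same order as the thyroid genes, with sums from 1358 to 1476 CPM in IgG and from 903 to 1616 CPM in anti-PD-L1. All 9 squamous epithelium genes were lower in anti-PD-L1 replicate 2 than in replicate 1. They summed to 11410 and 3065 CPM under IgG and to 4600 and 49.0 CPM under anti-PD-L1. Of 12 airway and mucosal gland genes 10 were lower in replicate 2. Their sums were 3893 and 20380 CPM under IgG and 30000 and 9754 CPM under anti-PD-L1. The part of these tissues, or of sex, in the autophagy values was not tested. In whole tissue, fewer cells of a type and less RNA per cell cannot be told apart.

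Dropping either treated library moved individual genes without bringing any past the threshold. Without anti-PD-L1 replicate 1, Map1lc3a, Wipi1, Atg9a and Atg4d had log2 fold changes of −0.59, −0.55, −0.48 and −0.46, the 4 members with an unadjusted edgeR p under 0.05 (edgeR adjusted p from 0.327 to 0.331). These 4 are 9.52% of the members, where 13.9% of all genes were under 0.05 in that fit. Without replicate 2, Atg101 was at 0.51 and Pik3r4 at −0.39 (edgeR adjusted p = 0.330 and 0.359), the 2 members (4.76%, against 13.2% of all genes) under an unadjusted 0.05, while Map1lc3a, Wipi1, Atg9a and Atg4d lay above 0. The members' median was −0.0058 without replicate 1 and 0.044 without replicate 2.

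Around the core machinery, of 39 listed accessory genes (tethers, small GTPases, organelle-specific receptors and regulators) 37 were in the table, with a median log2 fold change of 0.033, and edgeR called none of them. DESeq2 called 1 (2.70%, against 3.26% of all genes), and 1 had an unadjusted edgeR p under 0.05 (against 6.06%), so both counts were under the background. That gene was Trp53inp1, which encodes a stress-induced protein with a role in autophagy. It had 26.2 and 27.0 CPM under IgG and 52.1 and 51.8 CPM under anti-PD-L1, values that agreed closely within each group. Its log2 fold change was 0.97 ± 0.13 (SE, n = 2 per group; 95% interval 0.61 to 1.32, edgeR adjusted p = 0.200, DESeq2 adjusted p = 3.38e-05). Snap29, the SNARE that pairs with Stx17, came next by p at 40.1 and 35.3 CPM against 43.9 and 43.1 CPM, with 0.21 ± 0.15 on the log2 scale, which did not pass. The related Trp53inp2 had 480 and 404 CPM against 450 and 359 CPM. Atg9b, the paralog of Atg9a, had the lowest fitted value of the list, −1.14 ± 0.82, with 11.7 and 4.33 CPM against 5.77 and 1.52 CPM. Trp53inp2, Atg9b and, among the transcription factors below, Tfeb were chosen once their values had been seen.

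Transcription factors known to drive or repress autophagy genes were measured as 8 genes, none called by any of the 3 tools, with a median of 0.052. Tfeb, a main activator of lysosomal and autophagy genes, had 46.0 and 56.8 CPM under IgG and 69.2 and 36.4 CPM under anti-PD-L1, so its treated libraries lay on either side of the controls as in Map1lc3a. Its relative Tfe3 had 28.5 and 25.6 CPM against 27.0 and 32.1 CPM. Foxo3, which had the smallest p of the 8, had 48.0 and 53.3 CPM against 25.5 and 51.6 CPM, a low value in anti-PD-L1 replicate 1 only (log2 fold change −0.39 ± 0.37).

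Interferon gamma response genes of the same libraries are given for scale. Like the other lists, theirs was chosen with earlier results of these data known. All 20 genes of that list had both treated libraries above both controls (against 16.5% of all genes), with a median log2 fold change of 2.44. DESeq2 called 17 (against 3.26%) while edgeR called 0, and 18 had an unadjusted edgeR p under 0.05 (against 6.06%). The 12 macrophage and 12 T cell markers had medians of 1.93 and 2.04. In 10 and 12 of them both treated libraries were above both controls (against 16.5% of all genes). Summed macrophage levels ran from 1167 to 5782 CPM in IgG and from 3317 to 12700 CPM in anti-PD-L1, and summed T cell levels from 33.9 to 66.0 CPM and from 184.3 to 188.5 CPM. The autophagy members summed to 3175 and 3176 CPM under IgG and to 3363 and 3138 CPM under anti-PD-L1. No difference between lists was tested.

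**Figure D4:**
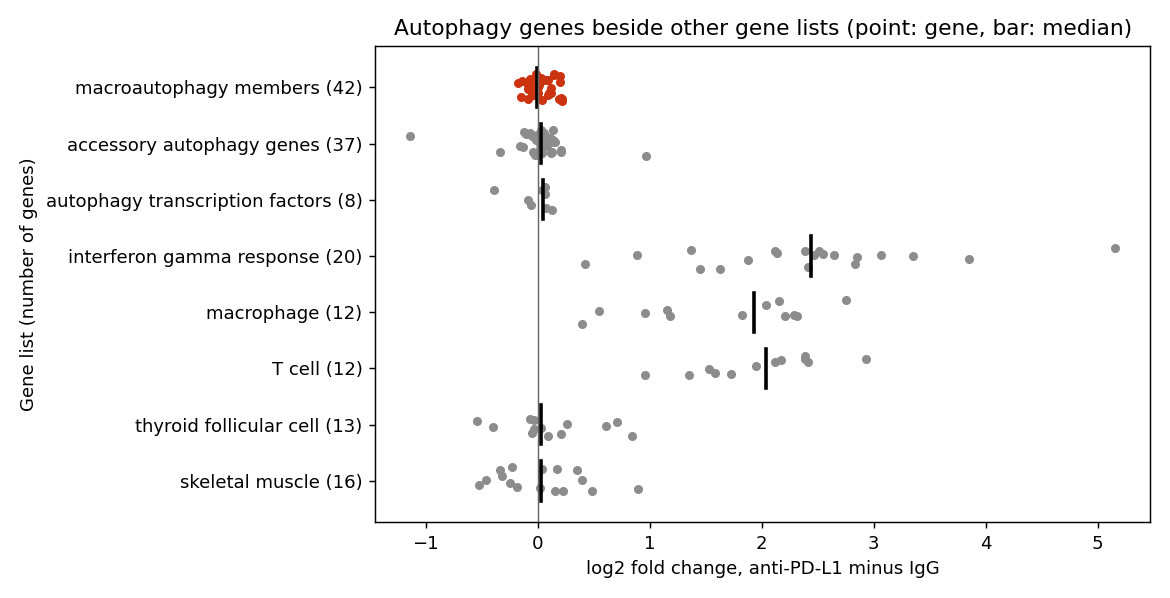
Fitted log2 fold change (anti-PD-L1 minus IgG) of every measured gene in 8 lists, with a point for each gene and a bar at each list's median. The 42 autophagy members lie between −0.18 and 0.22 around a median near 0, while the interferon gamma, macrophage and T cell genes lie above 0.

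Promoter sequence was examined because TFEB acts at CACGTG-type motifs, called CLEAR, whose core is TCACGTGA. RefSeq promoter windows on GRCm38.p6, from 250 bases before to 50 bases after each start, were found for 34 of the 42 members and searched on both strands. TCACGTGA was found in 1 member, Atg3 (2.94% against 1.91% of tested genes with a window). CACGTG, which it contains, was found in 5 (14.7% against 10.9%), namely Atg14, Atg3, Atg5, Atg7 and Rubcn. Among 31 accessory autophagy genes with a window, TCACGTGA was found in 5 (16.1%: Nrbf2, Rab24, Vps16, Vps33a and Sec62) and CACGTG in 9 (29.0%). The stretch of the Atg3 promoter around its match is shown as the only one with the core motif among the 34 windows, and capitals mark the motif.
Atg3: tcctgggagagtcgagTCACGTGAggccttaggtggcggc
It lies on the plus strand at chr16:45158741-45158780, with the motif beginning 72 bases before the start. Atg3 had the values given with the conjugation genes. A match is a stretch of letters and does not show that a factor bound there.

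Sequence shared with other genes limits some members. At least 1 of the 150-base transcript stretches also occurs in another gene for 14 members, and the share is over 10% for 7 of them. It was highest for Becn1 (27.0%, with Cntd1), Atg9a (26.4%, with Gm29253) and Atg4a. Becn1 and Cntd1 lie on opposite strands, and the strand setting of the counting is not given in the sources used here, so reads in the stretches they share cannot be told apart. Atg9a and Gm29253 overlap on the same strand, and Atg4a shares its stretches with a pseudogene of like sequence, so for these the strand would not separate the reads.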

How the data were processed

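Poly(A) RNA of 4 mouse thyroids was sequenced as paired reads of 150 bases. The authors deposited expected counts per gene symbol, not normalized; per the submitters' processing notes BWA and mm10 were used, with no role stated; for the counter, the annotation and any gene filter nothing is given in the sources used here. In 3328 genes (20.5%) the deposited expected counts ended in 0.5 in at least 1 library. Each listed gene reached at least 100 counts in some library, and 13 blank cells were read as 0.

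Counts were rounded. edgeR 4.0.16 in R 4.3.3 used filterByExpr (16217 genes kept), TMM factors, robust dispersion and the two-sided quasi-likelihood F test on group, adjusted by Benjamini-Hochberg across the whole table, with calls at 0.05. There were 2 residual degrees of freedom, and a median of 2.42 more came from the spread of other genes. Each SE is the size of the log2 fold change over the root of F. DESeq2 1.42.0 and limma 3.58.1 (voom) were alternatives, with other scalings, other filters, the replicate number as a block and each library left out in turn. The steps were tested on simulated data. CPM is TMM-normalized. Levels per kilobase divide mean CPM by the union of exons in GENCODE M21 on GRCm38, the assembly also called mm10, which counts retained introns.

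The rule for named genes took, in each step, the member of smallest p in each direction and those of highest and lowest level per kilobase, then the members of widest gap within a group. Of the accessory and transcription factor lists it took 2 each. The members and lists were chosen with earlier results of these data known. Lists of B and plasma cells, squamous epithelium, mucosal gland, C cell and parathyroid, and cartilage genes had median log2 fold changes of 0.36, −1.73, 0.27, 0.098 and −1.89, and adipocyte genes −0.093.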

Additional observations from a re-analysis of the deposited data

How the results depend on the processing

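edgeR called 0 genes and 0 members under each scaling, filter and left-out library, with the replicate block and with limma voom, and DESeq2 called 528 genes and 0 members. Unadjusted edgeR p-values under 0.05 numbered 982 genes and 0 members, and with a library left out 0 to 4 members (4 of 42, 9.52%, without anti-PD-L1 replicate 1, against 13.9% of all genes). The median of the members lay between −0.015 and 0.021 under the other alternatives and between −0.037 and 0.044 with each library left out. Members whose groups did not overlap numbered 4 higher and 3 lower, but 6 and 0 under library-size scaling, where 17.7% and 11.0% of all genes had those orders. Leaving out a library raised these counts, as a group of 1 overlaps less often. Without anti-PD-L1 replicate 1, 15 of the 42 were higher and 19 lower, against 39.2% and 38.8% of all genes. Without anti-PD-L1 replicate 2 they were 19 and 16, against 38% and 38.8%. Without IgG replicate 1 they were 8 and 10, against 24.8% and 26.6%. Without IgG replicate 2 they were 7 and 6, against 26.5% and 26.7%. The replicate numbers of the titles are not known to pair the mice (deviations of same-numbered libraries correlated at r = 0.0998 across genes), and the fit with the replicate block gave a median of −0.0061 and 0 members called. Of the 22 genes named by rule, 6 kept their sign without any 1 library. Signs changed in the other 16, and their log2 fold changes over the 4 left-out fits ranged from −0.27 to 0.063 for Ulk1, from −0.13 to 0.0503 for Rb1cc1, from −0.16 to 0.51 for Atg101, from −0.39 to 0.043 for Pik3r4, from −0.33 to 0.11 for Atg2b, from −0.55 to 0.25 for Wipi1, from −0.48 to 0.065 for Atg9a, from −0.46 to 0.25 for Atg4d. They ranged from −0.10 to 0.17 for Atg16l1, from −0.59 to 0.35 for Map1lc3a, from −0.23 to 0.094 for Map1lc3b, from −0.0021 to 0.16 for Sqstm1, from −0.14 to 0.29 for Optn, from −0.24 to 0.15 for Epg5, from −0.065 to 0.11 for Stx17 and from −0.26 to 0.21 for Rubcn. Rubcn was also at 0.028 under library-size scaling, and the sign of each other named gene held in all alternatives that kept the 4 libraries. No member passed the threshold in any of these fits, and the cause of the sign changes was not tested.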
